A study of Arabidopsis thaliana with 9 samples.

Results

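The transcriptome of an Arabidopsis thaliana line labelled as overexpressing RPGE2 (RPGE2-OX) was compared with that of the wild type, over every gene of the authors' deposited table. The comparison draws on 6 of the 9 libraries of the series, 3 per genotype, and on 37328 listed genes, of which 21680 (58.1%) were tested. Both genotypes were in the Col-0 background. They were whole seedlings, stratified on plates at 4 °C for 3 days and then kept at 22 °C for 7 days under constant white light (50 µmol/m2 per second). The labels give no promoter, construct or number of independent lines for the overexpressor. A double mutant of GLK1 and GLK2 labelled glk12 (3 libraries) was set against the same wild type and is given here for some lists as values side by side.

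RPGE proteins are small plant proteins known as repressors of the GOLDEN2-LIKE factors GLK1 and GLK2. The GLK factors are transcription factors that switch on nuclear genes for light-harvesting proteins, photosystem subunits and chlorophyll synthesis, and so set how many functional thylakoids a leaf cell builds. The series title places the study in shade, where plants lower this programme, and the libraries address what raised RPGE2 does in seedlings that were not shaded.

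The deposited table holds 1 log2 ratio and 1 q value (a p-value adjusted for the number of genes) per gene and comparison. It holds neither levels nor values per replicate, so library depth is unknown, no SD over replicates can be given, and levels of different genes cannot be compared. Nothing in the labels says that the replicates came from separate cultures, so the q values may measure technical spread. A gene is said here to have risen or fallen where its deposited q was below 0.05. Ratios are log2 of RPGE2-OX over the wild type unless glk12 is named. For RPGE2-OX q was 0.0018 unless another value is given, the lowest in its column and shared by 615 genes. That default does not cover the glk12 ratios. The tissue is whole seedlings, so fewer cells of a type and less RNA per cell cannot be told apart.

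More genes fell than rose in the deposited table, 862 against 557 of the 21680 tested, which made 60.7% of the 1419 calls a fall. Calls therefore covered 6.55% of tested genes, 3.98% as falls and 2.57% as rises, and these shares are the background for every list below. Most changes were modest: the median finite log2 ratio was -0.74 among genes that fell and 0.64 among genes that rose, or 1.67-fold and 1.56-fold. Changes of at least 2-fold were deposited for 260 of the genes that fell and 121 of those that rose, and changes of at least 4-fold for 69 and 36. The middle of the distribution lay near 0, with a median log2 ratio of 0.01 over all tested genes and -0.02 over 18 reference genes, none of which was called. Long non-coding RNA genes were called in 20 of 1110 tested cases and protein-coding genes of the nucleus in 1363 of 19815 (6.88%).

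The targeted family was examined first. AT3G55240, the RPGE family locus that rose, had a deposited log2 ratio of 4.79, and the files do not pair the name RPGE2 with a locus. The family member AT1G10657 fell, with a deposited log2 ratio of -5.47. AT5G02580 was not called (-0.32, q = 0.55) and AT3G28990 was untested. The targets of the family's repression, GLK1 and GLK2, rose slightly in the deposited table, by 1.37-fold (q = 0.013) and 1.32-fold (q = 0.038). In glk12 the deposited log2 ratios were -6.46 for AT3G55240 (q = 0.0019) and -1.27 for AT1G10657 (q = 0.0019).

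Changes at either end of the range joined photosynthetic genes with defence genes and unannotated loci. Beside AT1G10657 and 4 antenna genes, the 10 largest finite falls held the ncRNA gene AT4G13495 (-8.38), the unannotated AT1G13650 (-6.79), PGL5, a 6-phosphogluconolactonase (-6.05), UNE15, a late embryogenesis abundant protein (-4.36), and MRU1 (-4.20, q = 0.036), as log2 ratios in the authors' deposited table. The 10 largest finite rises held CYP71A12, a cytochrome P450 that acts in camalexin synthesis (5.58), AT1G26240, an extensin-like protein (4.93, q = 0.036), the non-coding AT3G05955 (4.48) and AT2G01422 (3.95), the methyltransferase PXMT1 (3.74, q = 0.0033) and AT2G17740 (2.94, q = 0.049), again as deposited log2 ratios. A further 21 called genes had infinite ratios. Of these, 9 were infinite rises, among which BGLU27, CYP82C2, the peroxidase gene AT1G14550, the lipase gene GLIP1 and AT2G48121 stood at the lowest q. Infinite falls numbered 12, of which 9 were long non-coding RNA genes, 1 was a snoRNA gene, 1 was a transcribed pseudogene and 1 was HTA4, a histone H2A gene.

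**Figure D1:**
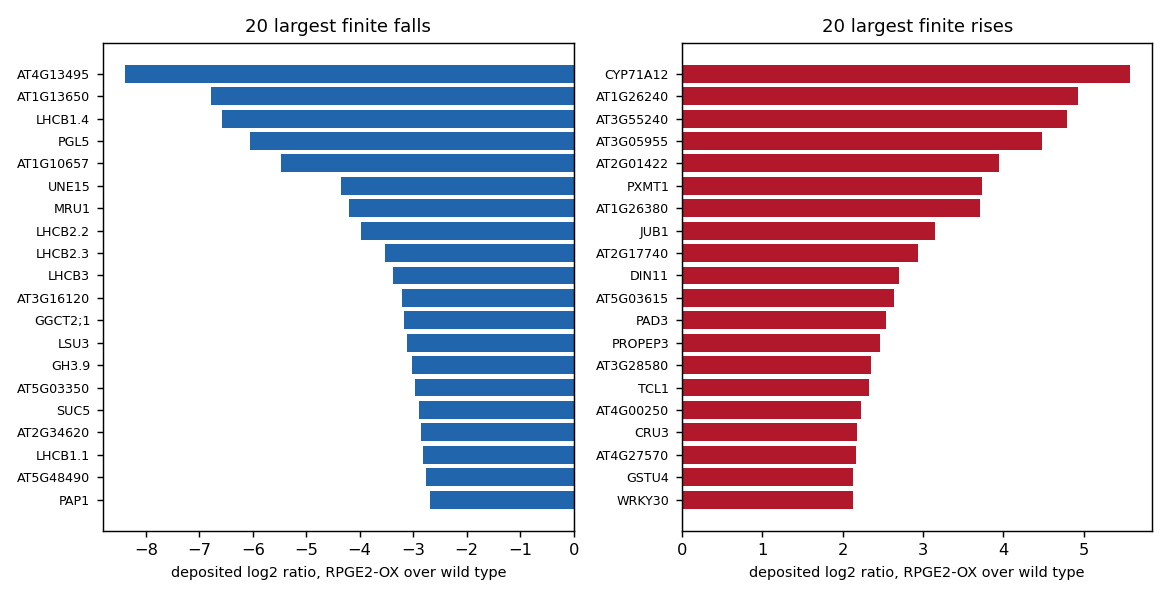
Deposited log2 ratios of RPGE2-OX over the wild type for the 20 called genes with the largest finite falls (left) and the 20 with the largest finite rises (right), each bar 1 gene of the authors' table. Falls reach -8.38 for AT4G13495 and rises 5.58 for CYP71A12, with AT3G55240 at 4.79.

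The promoter stretches below belong to genes that fell and are shown because each holds a motif tied to this pathway. AGATTCT is a motif known for GLK binding and CACGTG is the G-box, a general binding site of light-regulated bZIP and bHLH factors. Each run is the 250 bases before the annotated gene start, read 5′ to 3′ along the gene's strand, from RefSeq on build TAIR10.1, with AGATTCT or CACGTG in capitals (as AGAATCT where it lies on the other strand).
PSAE-2, chr2:8736484-8736733, plus strand: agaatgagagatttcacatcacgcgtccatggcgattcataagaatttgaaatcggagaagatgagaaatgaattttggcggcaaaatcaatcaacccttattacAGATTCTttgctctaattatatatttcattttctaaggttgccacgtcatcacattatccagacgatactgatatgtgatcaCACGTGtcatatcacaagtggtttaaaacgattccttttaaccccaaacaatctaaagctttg
PSBQ-2, chr4:2673244-2673493, minus strand: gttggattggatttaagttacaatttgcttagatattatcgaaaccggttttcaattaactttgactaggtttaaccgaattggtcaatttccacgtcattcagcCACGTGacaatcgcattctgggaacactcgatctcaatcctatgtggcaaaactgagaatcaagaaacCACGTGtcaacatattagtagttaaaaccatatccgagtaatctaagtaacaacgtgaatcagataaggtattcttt
LHCB2.3, chr3:10255656-10255905, plus strand: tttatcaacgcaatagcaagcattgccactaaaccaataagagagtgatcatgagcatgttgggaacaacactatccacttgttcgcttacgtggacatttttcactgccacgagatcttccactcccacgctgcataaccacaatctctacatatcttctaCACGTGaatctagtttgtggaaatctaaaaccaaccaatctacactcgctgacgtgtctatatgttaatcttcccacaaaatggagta
HEMA1, chr1:21626403-21626652, minus strand: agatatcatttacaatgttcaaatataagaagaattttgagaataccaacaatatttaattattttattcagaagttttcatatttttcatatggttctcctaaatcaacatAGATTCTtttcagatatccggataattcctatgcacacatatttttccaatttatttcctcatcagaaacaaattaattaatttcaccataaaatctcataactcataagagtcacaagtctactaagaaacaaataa
SDI1, chr5:19807854-19808103, minus strand: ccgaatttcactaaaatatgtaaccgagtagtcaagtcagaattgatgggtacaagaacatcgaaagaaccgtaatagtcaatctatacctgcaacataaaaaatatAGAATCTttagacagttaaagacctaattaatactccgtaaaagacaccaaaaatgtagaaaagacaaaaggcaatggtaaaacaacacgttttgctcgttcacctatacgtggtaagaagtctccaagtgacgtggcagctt
Over the windows of all 19811 tested protein-coding genes with a full window, AGATTCT on either strand was present in 6.12%. It was present in 7.48% of the 829 genes that fell, in 10.7% of the 243 that fell by at least 2-fold, and in 3.56% of the 533 that rose. The G-box was present in 7.27% of all windows, 11.1% of those of genes that fell, 16.9% of those that fell by at least 2-fold and 7.13% of those that rose. The shorter core GATTC, which AGATTCT contains, was in 39.0% of all windows in 37.8% of those of genes that fell and in 42.8% of those that fell by at least 2-fold. The evening element AAAATATCT, a clock motif, was in 2.46% of all windows, 2.65% of those of genes that fell and 2.47% of those that fell by at least 2-fold. In the antenna list GATTC was in 14 of 21 windows and AGATTCT in 2, those of LHCB1.5 and LHCB5. The sulfur list, to which SDI1 belongs, had AGATTCT in 2 of 28 windows (7.14%). It had the G-box in 1 (3.57%) and GATTC in 10 (35.7%), so its shares were near or below those of all windows. A match in letters is a description and not a binding site.

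Light-harvesting genes fell in both photosystems. Of 21 antenna genes, whose products bind chlorophyll and pass light energy to the reaction centres, 19 fell and none rose, with a median deposited log2 ratio of -2.06. In glk12, where 3.04% of all tested genes fell, 19 of the same 21 fell, with a median of -1.67. All 8 genes of the major antenna of photosystem II (LHCB1 and LHCB2) fell, with a median of -2.71 and a range led by LHCB1.4 at -6.58, LHCB2.2 at -3.98 and LHCB2.3 at -3.52 in the authors' table. Of LHCB3 and the minor antenna genes 6 of 7 fell, and of the photosystem I antenna genes 5 of 6. The antenna genes without a call were LHCA5 (-0.18, q = 0.56) and LHCB7 (0.23, q = 0.57) in the deposited table. LHCB1.1, LHCB1.2 and LHCB1.3 lie side by side as near-identical copies, so the split of reads among them is uncertain.

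Subunits of both photosystems fell together, and smaller shares of the electron transport, NDH and assembly lists fell. All 12 nuclear photosystem I subunit genes fell, with deposited log2 ratios from -2.22 for PSAD-2, which docks ferredoxin, to -0.98 for PSAN. The same 12 all fell in glk12, with a median deposited log2 ratio of -1.54 there against -1.57 in RPGE2-OX. In photosystem II 11 of 13 listed genes fell, with a median deposited log2 ratio of -0.91 and the lowest of -2.22 at PSBQ-2, a subunit of the oxygen-evolving complex. PSBP-2, annotated as another subunit of photosystem II and not in that list, fell by more (-2.65, q = 0.022). Electron carriers and the ATP synthase had 7 falls in 14 genes, among them the plastocyanin gene PETE1 (-1.96) and the ferredoxin gene FD2 (-0.75) in the deposited table. The NDH complex, which carries electrons around photosystem I, had 4 falls in 21 genes and a median deposited log2 ratio of -0.22. Among 26 genes for assembly and repair 3 fell, namely HCF107, needed for a plastid transcript of photosystem II (-1.45), and the thylakoid curvature genes CURT1B (-1.01) and CURT1A (-1.004), as deposited. Early light-induced proteins went the other way, with deposited rises of ELIP1 (2.04) and ELIP2 (1.75), relatives of the antenna proteins that protect chlorophyll, while the other 6 genes of that list were not called.

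**Figure D2:**
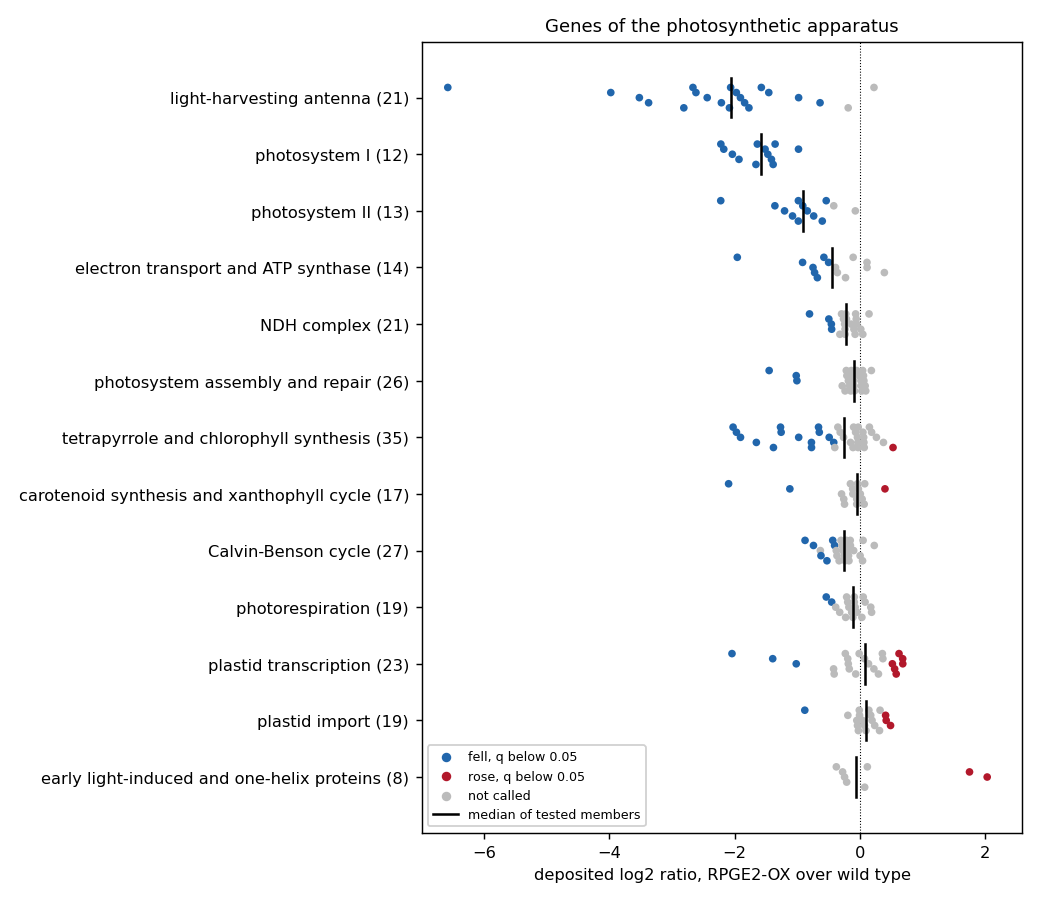
Deposited log2 ratios of RPGE2-OX over the wild type for tested genes of 13 photosynthetic and plastid lists (number tested in brackets), 1 point per gene, blue for genes that fell, red for genes that rose and grey for genes not called, with the list median as a black line. Antenna (median -2.06) and photosystem I (median -1.57) genes lie left of 0, while the plastid import list (median 0.10) is centred near it.

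Genes of chlorophyll synthesis fell at particular steps. Of 35 tested tetrapyrrole genes 14 fell and 1 rose, with a median deposited log2 ratio of -0.26. The magnesium branch and phytol supply held 9 of the falls in 13 genes, with all 13 ratios below 0. They included PORB, the light-dependent protochlorophyllide reductase (-2.02), CAO, which makes chlorophyll b (-1.97), GUN4 and GUN5 of the magnesium chelatase step (-1.91 and -1.26), GGR (-1.38) and the cyclase gene CRD1 (-1.27), as deposited log2 ratios. The steps from glutamyl-tRNA to protoporphyrin held 5 falls in 14 genes, led by HEMA1, the first committed enzyme, at -1.65 in the authors' table. HEMA2, a second gene for the same enzyme, was not called (-0.07, q = 0.92). In the 8 genes of the heme and bilin branch and of chlorophyll b return none fell, and HY2, which makes the phytochrome chromophore, rose (0.53, q = 0.015) in the deposited table. Among 17 carotenoid genes BETA-OHASE2 (-2.10) and PSY, phytoene synthase (-1.12), fell and BETA-OHASE1 rose (0.40, q = 0.048), by the deposited values. Of 18 tested genes of chlorophyll breakdown and senescence 5 rose (27.8%) and 2 fell (11.1%), with a median deposited log2 ratio of 0.02.

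The plastid's own expression machinery was split. Of 23 genes for plastid transcription 6 rose and 3 fell in the deposited table. The genes that rose encode parts of the plastid-encoded RNA polymerase complex, namely FLN2 (0.69), FSD3 (0.69), PTAC12 (0.63, q = 0.0082), FSD2 (0.58), FLN1 (0.56) and PTAC10 (0.52, q = 0.0046), as deposited log2 ratios. The genes that fell were PTAC16 (-2.04), the sigma factor gene SIG1 (-1.39) and PTAC8, which is the same locus as CURT1B. The other 5 sigma factor genes were not called, with deposited log2 ratios from -0.19 to 0.14. Import had rises of the translocon genes TOC33 (0.49, q = 0.0070), TIC40 (0.42, q = 0.023) and TIC110 (0.41, q = 0.034) and a fall of TIC62 (-0.88) among 19 genes, by the authors' table. None of 19 nuclear genes annotated with a plastid ribosomal protein was called, with deposited log2 ratios from -0.20 to 0.70. Of 73 tested chloroplast-encoded genes 3 fell and 1 rose. Carbon fixation genes fell in part, with 6 of 27 Calvin-Benson genes down, led by GAPA-2 (-0.87) and RBCS3B (-0.74). Of 19 photorespiration genes 2 fell, GLDP1 (-0.54, q = 0.0046) and PLGG1 (-0.45, q = 0.020), in the deposited table.

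Genes of sulfur uptake and assimilation fell. Plants take up sulfate through SULTR transporters, activate it with ATP sulfurylase (APS), reduce it through APS reductase (APR) and build cysteine, and a set of marker genes rises when sulfur runs short. Of 28 tested genes 20 fell and 1 rose, with a median deposited log2 ratio of -1.11. Markers of low sulfur fell most: GGCT2;1, which degrades glutathione, had a deposited log2 ratio of -3.17, LSU3 one of -3.11 (q = 0.016), LSU1 -2.33, SDI1 -2.22, LSU2 -1.93, SDI2 -1.76 and LSU4 -1.52 (q = 0.030). SDI1, whose promoter is printed above, is known to restrain glucosinolate synthesis when sulfur is short. All 3 APR genes fell, with deposited log2 ratios of -1.52 for APR1, -1.49 for APR3 and -1.14 for APR2, and APS3 fell too (-0.95). Among 7 transporters 5 fell, led by the root uptake transporter SULTR1;1 (-1.65, q = 0.0070) and the vacuolar exporter SULTR4;2 (-1.20) in the authors' table. The sulfite reductase gene SIR had a deposited log2 ratio of -0.37 (q = 0.073) and none of 3 cysteine synthesis genes was called. The member that rose was BGLU30 (1.71), which is the same locus as the dark-induced gene DIN2.

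In glk12 the same 28 sulfur genes had 6 falls, 1 rise and a median deposited log2 ratio of -0.36, against a background of 5.67% of tested genes called there, 3.04% as falls and 2.63% as rises. Deposited glk12 log2 ratios were -0.86 for GGCT2;1 (q = 0.18), -0.45 for LSU3 (q = 0.70), -0.31 for LSU1 (q = 0.84) and -0.16 for SDI1 (q = 0.90). APR1 stood at -0.62 (q = 0.19) and APR3 at -0.52 (q = 0.17) there, while LSU2 (-1.45), APR2 (-1.01) and SULTR1;1 (-1.77, q = 0.020) fell. Both lines share the wild-type libraries, and the difference between them was not tested.

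Jasmonate genes fell along the pathway from synthesis to response. Jasmonate is a lipid hormone of wounding and defence, made from plastid fatty acids by LOX, AOS and AOC enzymes and sensed through degradation of JAZ repressors. Of 38 tested genes 17 fell and 1 rose, and 36 of the 38 ratios were below 0, with a median deposited log2 ratio of -0.48. Synthesis genes held 9 falls in 14, with LOX2 at -1.29, AOS at -1.21, AOC2 at -1.13, AOC1 at -0.99 and OPR3 at -0.60 (q = 0.0059) in the authors' table. Among the JAZ repressors and signalling genes 5 of 14 fell, including JAZ7 (-1.09, q = 0.0033), JAZ6 (-0.76) and MYC2, the main activator of the pathway (-1.41, q = 0.025). The response genes VSP2 (-2.10) and CORI3 (-1.38) fell as well, by the deposited values. The receptor gene COI1 had a deposited log2 ratio of -0.03 (q = 0.98). CYP94B3, which inactivates the active hormone, was the member that rose (1.22, q = 0.0070). In glk12 the same list had 2 falls, 3 rises and a median deposited log2 ratio of 0.03, and there LOX2 stood at -0.40 (q = 0.30), AOC1 at 0.06 (q = 0.97) and VSP2 at -0.35 (q = 0.40), with the difference between lines not tested.

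**Figure D3:**
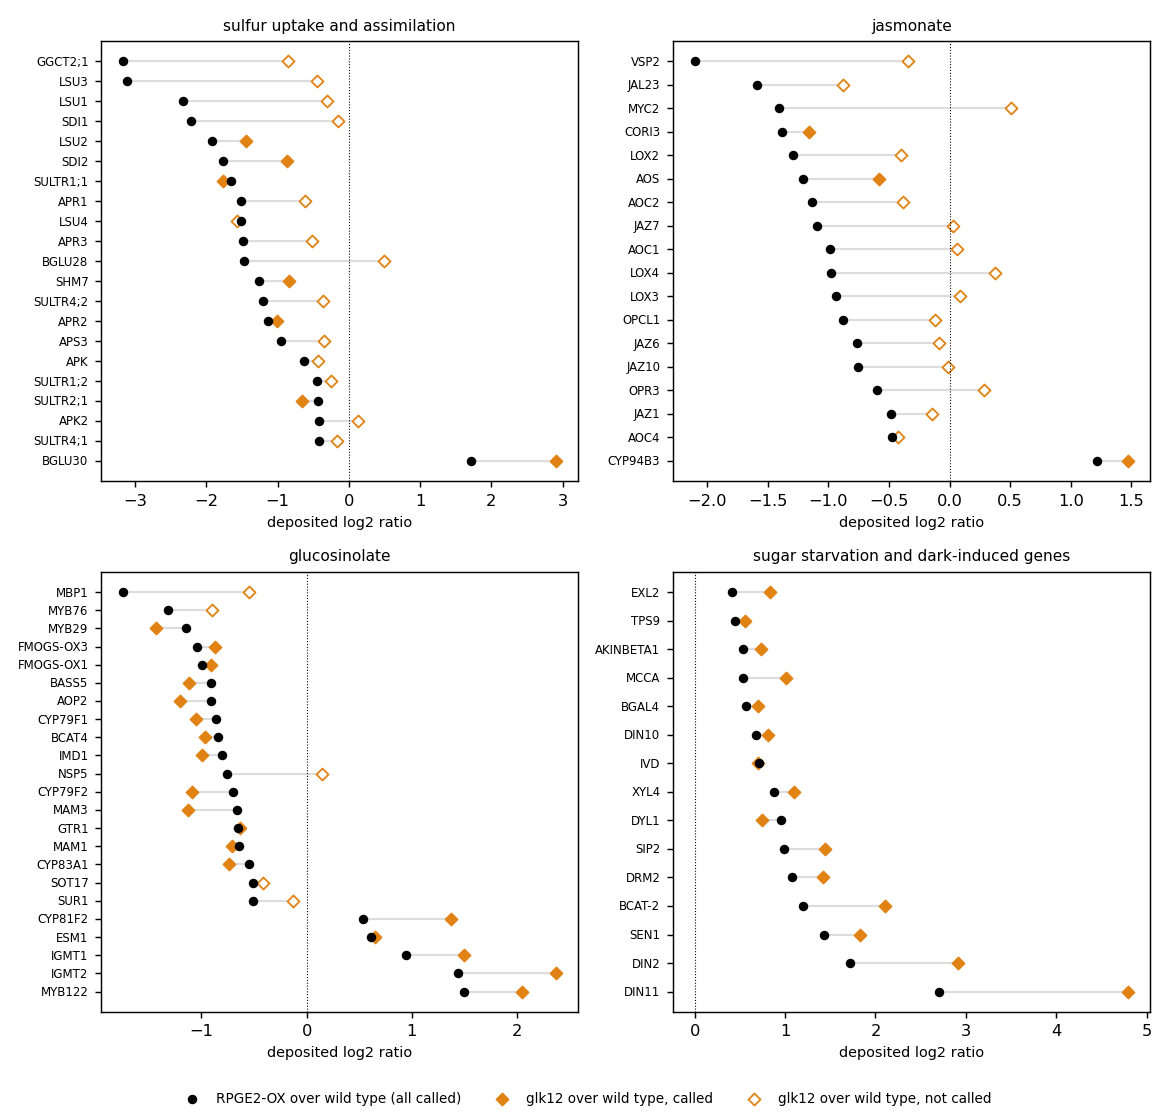
Deposited log2 ratios over the shared wild type for the genes of 4 lists that were called in RPGE2-OX (black points), with the glk12 ratio of the same gene as an orange diamond, filled where called at q below 0.05. In the sulfur and jasmonate panels many glk12 diamonds are open, such as SDI1 at -0.16 and LOX3 at 0.09, while in the sugar starvation panel all 15 are filled.

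Glucosinolate genes that were called went in opposite directions in the aliphatic and indolic branches. Glucosinolates are sulfur-containing defence compounds of the cabbage family, with an aliphatic branch made from methionine and an indolic branch made from tryptophan. In the aliphatic branch 14 of 19 genes fell and none rose, with a median deposited log2 ratio of -0.70. They included the regulators MYB76 (-1.32) and MYB29 (-1.15), the oxygenase FMOGS-OX3 (-1.04), the side-chain gene AOP2 (-0.91) and CYP79F1, the entry enzyme (-0.86), by the authors' table. In the indolic branch 4 of 12 rose and none fell, namely MYB122 (1.49), the methyltransferase genes IGMT2 (1.44) and IGMT1 (0.95), and CYP81F2 (0.54, q = 0.017), as deposited. The median of the 12 was 0.11, with 5 ratios below 0. Of 13 genes for shared steps, transport and breakdown 4 fell and 1 rose, with a median deposited log2 ratio of -0.35 and 11 ratios below 0. The lowest was MBP1, a myrosinase-binding protein (-1.75), and the gene that rose was ESM1 (0.61). In glk12 the aliphatic branch had 12 falls and the indolic branch 5 rises.

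The camalexin list, for the indole phytoalexin of Arabidopsis, had 7 rises and 2 falls in 13 tested genes. PAD3, the last enzyme of the pathway, had a deposited log2 ratio of 2.54, the regulator ANAC042 one of 3.16 and the berberine bridge enzyme-like gene AT1G26380 one of 3.71. CYP71A13, the close relative of CYP71A12, was not called at a deposited log2 ratio of 6.44 (q = 0.69). The glutathione transferase gene GSTF6 rose (1.90), as did its neighbour GSTF7 (2.03), a near-identical copy with which reads may be shared. The deposited log2 ratios in glk12 were 4.56 for PAD3, 4.01 for ANAC042 and 6.09 for AT1G26380.

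Genes of carbon shortage rose. They are induced in darkness or without sugar and release carbon from sugars, walls and amino acids. Of 24 tested genes 15 rose and none fell, with a median deposited log2 ratio of 0.53. DIN11, an oxygenase gene, stood highest (2.70), followed by the beta-glucosidase gene DIN2 (1.71), SEN1 (1.43) and BCAT-2, a branched-chain aminotransferase (1.19, q = 0.049), in the authors' table. All 5 genes for release of sugars from oligosaccharides, glucosides and walls rose, among them SIP2 (0.99), XYL4 (0.87), DIN10 (0.68) and BGAL4 (0.56), as deposited log2 ratios. For breakdown of branched-chain amino acids 3 of 6 rose, namely BCAT-2, IVD (0.71) and MCCA (0.53, q = 0.0070). ASN1, an asparagine synthetase and a common marker of the same state, was not called (-0.26, q = 0.35) in the deposited table. In glk12 the list had 18 rises and a median deposited log2 ratio of 0.74, with DIN11 at 4.79 and DIN2 at 2.91. Sugar transporter genes were called in both directions, with deposited log2 ratios of 0.77 for STP13 and 0.65 for STP1, hexose importers of the plasma membrane, -0.86 for the plastid triose phosphate translocator gene APE2 and -2.90 for the sucrose importer gene SUC5, which is in no list.

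Anthocyanin genes fell at the late steps. Of 6 genes for the late steps and their regulator 5 fell, namely the MYB regulator PAP1 (-2.68, q = 0.037), DFR (-2.59), LDOX (-2.44), UF3GT (-1.69) and UGT75C1 (-1.03, q = 0.022), as log2 ratios in the deposited table. Of 9 genes for the early steps and flavonol none fell and 2 rose, F3H (0.54, q = 0.0070) and FLS1 (0.62). In the general phenylpropanoid group 4CL3 (-1.46) and FAH1 (-0.39, q = 0.048) fell, and the 4 PAL genes had deposited log2 ratios from -0.38 to 0.09 with none called. The glk12 values were -2.15 for PAP1 (q = 0.092), -0.80 for DFR (q = 0.051), -1.03 for LDOX (q = 0.023) and -0.09 for UF3GT (q = 0.98). The 6 late-step genes had 1 fall and a median deposited log2 ratio of -0.83 in glk12, against -2.07 in RPGE2-OX. The difference between lines was not tested.

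**Figure D4:**
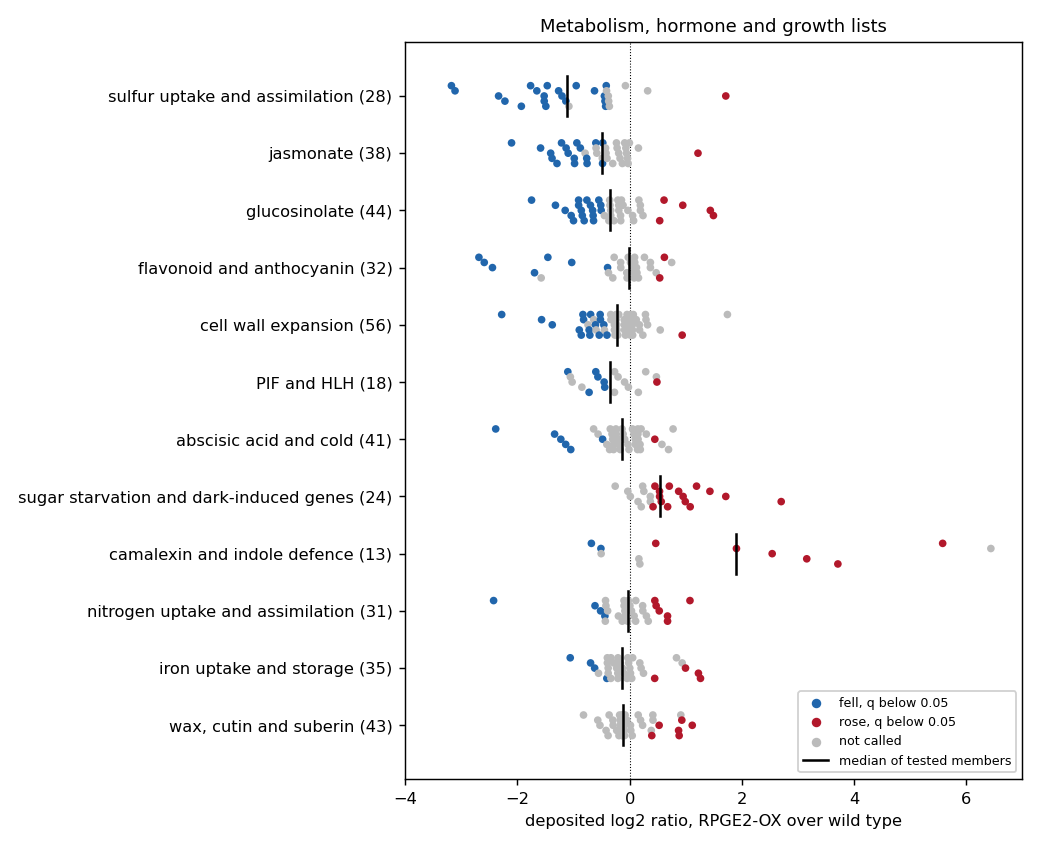
Deposited log2 ratios of RPGE2-OX over the wild type for tested genes of 12 metabolic, hormone and growth lists (number tested in brackets), drawn with blue for falls, red for rises, grey for genes not called and a black line for the list median. The sulfur list has a median of -1.11 and the sugar starvation list one of 0.53, and the genes of the flavonoid list that fell reach -2.68. CYP82C2 of the camalexin list is left out because its ratio is infinite.

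Genes of cell wall loosening and auxin-responsive SAUR genes fell more often than they rose. Of 56 cell wall loosening genes 16 fell and 1 rose, with a median deposited log2 ratio of -0.23. The expansins contributed 6 falls in 22, led by EXPB1 (-2.28), and the xyloglucan enzymes 9 falls in 29, with XTH13 (-1.38), XTH17 (-0.90) and XTH14 (-0.86) among them and XTH24 the gene that rose (0.94), by the authors' table. Auxin-responsive SAUR genes had 7 falls in 15, including SAUR19 (-1.45, q = 0.0059) and SAUR26 (-1.10), and the SAUR19 and SAUR20 copies lie side by side and may share reads. Among PIF and HLH genes 6 of 18 fell, including the growth-promoting PIF4 (-0.72) and PIF7 (-0.56, q = 0.0046) and PRE2 (-1.10, q = 0.0046), as deposited. Their antagonists went both ways, with a rise of HFR1 (0.49, q = 0.023) and falls of IBH1 (-0.45, q = 0.030) and, in the shade list, PAR2 (-0.54, q = 0.038). The auxin conjugation gene GH3.9 fell (-3.03) and GH3.2 rose (1.04). Their list of auxin synthesis, transport and GH3 genes had 3 falls and 1 rise in 33 tested genes. Of 26 tested auxin Aux/IAA genes 2 fell (7.69% against 3.98% over all genes) and none rose, with a median deposited log2 ratio of -0.16. Of 36 cell division genes CYCD3;2 (0.56) and GRF5 (0.86) rose and none fell in the deposited table.

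A few light and clock regulators were called, in both directions. HY5, a bZIP factor that promotes greening, rose (0.58, q = 0.0033) in the authors' table. So did GNC (0.71) and CGA1 (0.45, q = 0.042), GATA factors known to act beside the GLK factors in chlorophyll synthesis. The 44 light signalling genes had 3 rises and 3 falls, 6.82% each, against 2.57% and 3.98% over all genes. Of 16 tested genes with a BBX symbol (B-box factors) 4 fell (25%), BBX16 (-2.36), BBX27 (-1.17), BBX15 (-0.95) and BBX14 (-0.45, q = 0.012). BBX4, a B-box factor counted with the light signalling genes, fell as well (-0.55, q = 0.0033). Of 33 clock genes 3 rose (9.09%), RVE2 (0.62), RVE1 (0.52, q = 0.0092) and LHY (0.46, q = 0.018), by the deposited ratios. Only CHE fell (-1.003), a share of 3.03%, below that of all genes.

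Nutrient and stress lists held opposite calls within a pathway. Iron uptake genes IRT1 (1.23) and FRO2 (1.00) rose with CYP82C4 (1.26), while the regulators bHLH100 (-1.06) and BHLH39 (-0.69, q = 0.044) fell, in a list with 4 rises and 4 falls in 35 genes of the authors' table. The deposited glk12 log2 ratios of those regulators were 0.77 (q = 0.040) and 1.86. In nitrogen metabolism 6 of 31 rose and 4 fell, with the glutamine synthetase gene GLN1;4 at -2.42 and the nitrate-responsive regulators BT1 at 1.08 and BT2 at 0.68, as deposited. Of 41 genes of abscisic acid and cold 6 fell and 1 rose, with COR414-TM1 (-2.39), COR15B (-1.34), GOLS2 (-1.22) and COR15A (-1.05) among the falls. None of 32 ethylene genes and none of 22 heat shock genes was called in the deposited table, against 6.55% of all tested genes. At that share lists of this size hold few calls, so the absence says little about them. ACS4 had the lowest ratio of the ethylene list (-1.75, q = 0.055) and HSP17.8 the highest of the heat shock list (0.94, q = 0.13). In glk12 the ethylene list had 7 rises and 1 fall in 35 tested genes, where 2.63% of all tested genes rose. The difference between lines was not tested.

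**Figure D5:**
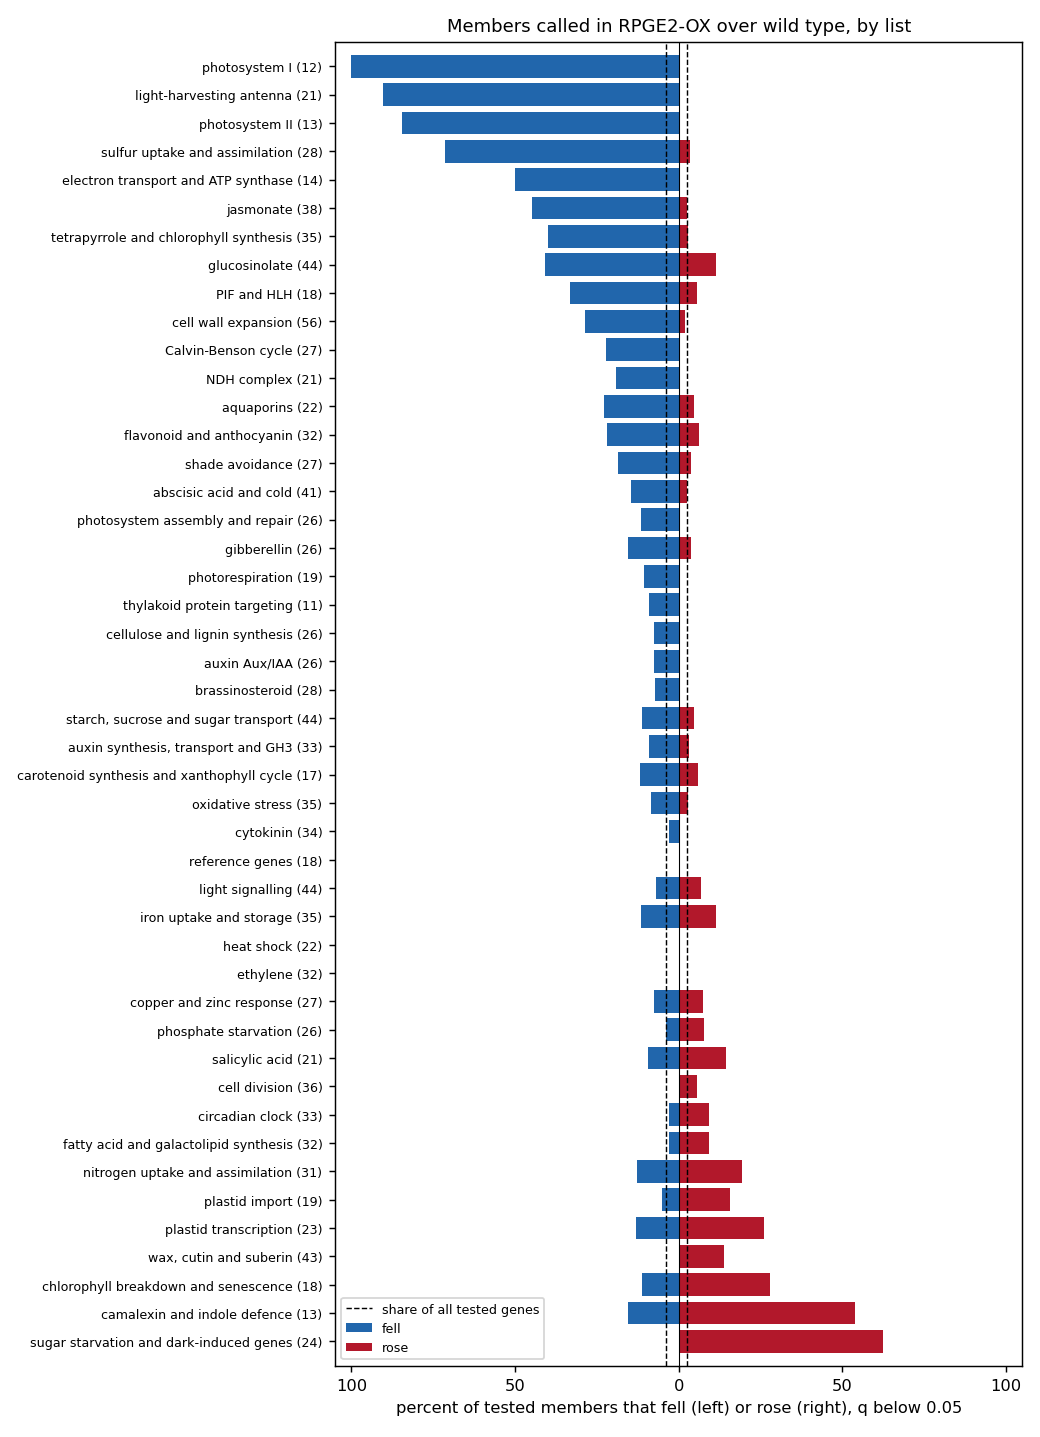
Percent of tested members that fell (blue, left) or rose (red, right) in RPGE2-OX at a deposited q below 0.05, for lists with at least 10 tested genes (number in brackets), with the shares of all tested genes, 3.98% falling and 2.57% rising, as dashed lines. Photosystem I, the antenna, photosystem II and the sulfur list stand at the falling end and the sugar starvation list at the rising end.

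Large enzyme families held calls in both directions, at shares above the 2.57% rising and 3.98% falling over all tested genes. Of 161 tested cytochrome P450 genes 16 rose (9.94%) and 20 fell (12.4%). Of 55 class III peroxidase genes 8 rose (14.5%) and 11 fell (20%). Of 45 glutathione transferase genes 6 rose and 6 fell (13.3% each). Beside GSTF6 and GSTF7, GSTU4 (2.14, q = 0.0033) and GSTL1 (1.11) rose, while GSTF14 (-1.22) and GSTF13 (-1.13, q = 0.036) fell, as deposited log2 ratios. Among the peroxidases PRX52 (1.91, q = 0.037) and PER4 (1.60) rose and AT5G47000 (-1.48, q = 0.039) and AT3G49960 (-0.68) fell. Cysteine-rich receptor-like kinases had 2 rises in 28 genes (7.14%), CRK4 (1.75) and CRK13 (1.15, q = 0.021), and no fall. Of 57 WRKY factor genes 4 rose (7.02%), including WRKY30 (2.13, q = 0.017) and WRKY28 (1.28), by the authors' table. The only WRKY gene that fell was WRKY49 (-1.18, q = 0.030), a share of 1.75%. Of 67 NAC factor genes 4 rose (5.97%) and none fell.

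Salicylic acid, lipid and starch genes gave a few large values. ICS1, the main enzyme of salicylic acid synthesis, fell (-1.79) and the glucosyltransferase gene UGT74F2 rose (0.80), among 21 genes with 3 rises and 2 falls in the deposited table. The beta-amylase family gene BMY5 (-1.54) and the sucrose phosphate synthase gene SPS4F (-0.52, q = 0.0033) fell in a starch and sugar list with 5 falls and 2 rises in 44. Galactolipids form the thylakoid membrane, and DGD1, which makes digalactosyldiacylglycerol, fell (-0.78) while the desaturase gene FAD2 of the endoplasmic reticulum rose (0.78), by the deposited ratios. CAT3, a catalase gene, fell (-1.27), and of 35 oxidative stress genes 3 fell and 1 rose. Of 22 aquaporin genes 5 fell, among them PIP2;4 (-0.58, q = 0.037) and PIP2;3 (-0.50, q = 0.015), and PIP2;8 rose (0.60), as deposited.

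Markers of organs and cell types were called in 9 of 47 tested cases over 7 lists, or 19.1% against the background of 6.55%, as 6 falls and 3 rises. Of 13 tested root markers 3 fell, COBL9 (-0.68, q = 0.018), PRP3 (-0.66, q = 0.028) and RCI3 (-0.56), a share of 23.1% against 3.98% over all genes, and the median deposited log2 ratio of the list was -0.34. The phloem list had 2 falls in 6 (33.3%), the guard cell list 1 fall in 12, and the trichome and epidermis lists 1 rise each, in 5 and 7 genes. Of 9 seed markers 1 was tested, the storage protein gene CRU3, which rose (2.18, q = 0.0046). The part of a shift in organ or cell type make-up in the lists above was not tested.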

How the data were processed

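Whole-seedling RNA from 3 RPGE2-OX and 3 wild-type samples was made into stranded libraries from 1 µg of total RNA, per the labels' protocols. The submitters' processing notes name, without roles, build TAIR10 and the tools TopHat, Cuffdiff, Cufflinks and CASAVA 1.8.2. Other versions, filters and replicate handling were not given in the sources used here. Values of other type are log2 ratios with text for infinite ratios, and beside them stand q values, both computed by the authors and deposited in 1 table. The text was decoded so that infinite ratios have the same sign convention in both comparisons. A q of 1 was taken as untested. No test was added to the authors' calls (q below 0.05). Counting was checked on simulated data.

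Members of 82 gene lists were matched by symbol, synonym or locus, and 38 symbols were left unmatched. Lists, members and roles within lists were chosen with earlier results of these data known. Named genes were the RPGE and GLK loci, the 10 largest changes per direction, and the called members of each list with the largest ratios (4 per direction, 8 in photosynthetic and regulator lists). Others named beside them to complete a role, including uncalled ones, were chosen after their values were seen. Gene names, types and promoters are from RefSeq on TAIR10.1. Python 3 with pandas was used.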

Additional observations from a re-analysis of the deposited data

How the results depend on the processing

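With q below 0.01 the rises numbered 311 and the falls 513, against 557 and 862, and with q below 0.1 they numbered 796 and 1122. A floor of 1.5-fold left 331 rises and 590 falls, and 2-fold left 121 and 260. Leaving out infinite ratios left 548 and 850, and nuclear protein-coding genes alone gave 533 and 830. Over every listed gene 3.80% were called, against 6.55% of tested genes. In the lead lists the tetrapyrrole rise was lost at q below 0.01 and at 1.5-fold (0 genes) and became 2 at q below 0.1. Plastid transcription kept 3 rises at 1.5-fold and had 5 falls at q below 0.1, and cell wall expansion had 2 rises at q below 0.1. Of 144 rise or fall counts in the other lists, 49 moved by over 1.5 times at q below 0.01, 43 at 1.5-fold and 20 at q below 0.1. The 6 surface lipid rises, for example, became 3 at q below 0.01. Subtracting the median ratio of all tested genes (0.01) or of the reference genes (-0.02) could reverse no called gene. The smallest called log2 ratios were 0.39 among rises and -0.38 among falls, so this setting is no check of the calls. No paired analysis was possible because the deposited table holds 1 ratio per gene, and for the same reason no replicate could be left out. Depth is unknown.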

Other observations

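A stretch of chromosome 4 held several of the lowest ratios close together. UNE15 (AT4G13560) had a deposited log2 ratio of -4.36, and HTA4 (AT4G13570) and the long non-coding AT4G06115 beyond it were called with infinite falls. AT4G13572 and AT4G13575 had deposited log2 ratios of -6.54 (q = 0.67) and -11.93 (q = 0.62), neither of them called. Farther on, AT4G13577 had an infinite fall and was untested, and AT4G13580 stood at -0.35 (q = 0.66). AT4G13495, the largest finite fall, lies before UNE15 with 10 tested genes between them, of which only AT4G06085 was called, with an infinite fall. AT4G06080 (-3.91, q = 0.64) and AT4G06090 (infinite, q = 0.13) lie beside it and were not called. The other 7 genes between had deposited log2 ratios from -0.21 to 0.33. In glk12 the deposited log2 ratios were -3.66 for AT4G13495, -4.13 for UNE15, -3.56 for AT4G13572 and -4.85 for AT4G13575, all called there. HTA4 (-3.50, q = 0.47), AT4G06115 (-3.53, q = 0.32) and AT4G06085 (-2.91, q = 0.42) were not called in glk12. The stretch was noticed after its values were seen. It was not the only one on this chromosome, as AT4G04408, AT4G04865 and AT4G04895, between positions 2184059 and 2198150, were also called with infinite falls. In bins of 1 Mb, 11.2% of tested genes fell in the bin from 2 Mb and 11.1% in the bin from 7 Mb, which holds UNE15.

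Some neighbouring genes shared a direction. Of 856 nuclear genes that fell, 143 (16.7%) had an adjacent tested gene that also fell, against 7.31% of the genes that did not fall. Of 556 that rose, 58 (10.4%) had a neighbour that rose, against 4.88%. Copies such as LHCB1.1, LHCB1.2 and LHCB1.3 and the thalianol genes CYP705A5, CYP708A2 and THAS1 on chromosome 5 were among the runs of 3 adjacent falls.

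Surface lipid genes had 6 rises and no fall in 43 tested genes. They were the wax ester synthase gene WSD1 (1.12, q = 0.028), the cutin genes CYP86A7 (0.93), DCR (0.87) and CYP86A4 (0.53, q = 0.012), the alkane gene CER1 (0.88) and KCS12 (0.40, q = 0.0497), as deposited log2 ratios. The list median in RPGE2-OX was -0.11, with 27 ratios below 0 and 16 above. In glk12 the same list had no call and a median deposited log2 ratio of -0.12, and the difference between lines was not tested.

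Of the 12 called genes with an infinite fall in RPGE2-OX, 10 had finite glk12 ratios, all below 0 and from -0.91 to -3.53, with none called there. Such genes had signal in the wild type and none in RPGE2-OX, and the glk12 ratio uses the same wild-type libraries. A glk12 ratio below 0 is therefore favoured by the choice of genes and is no separate evidence.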
